A study of Mus musculus with 4 samples.

Results

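The adult hemoglobin genes and a red cell enzyme gene were examined in bulk RNA of the mouse cerebellum. The set held 6 of the 24532 gene identifiers in the deposited tables, namely the alpha-globin genes *Hba-a1* and *Hba-a2*, the beta-globin genes *Hbb-bs*, *Hbb-bt* and *Hbb-b1*, and *Alas2*. They were selected on their TPM in these same libraries, which was already known, and each was found by its NCBI gene number. Their difference between the genotypes is therefore given as a description, without a test. The libraries came from granule-cell-enriched (GCE) tissue cut by hand from slices of the cerebellar vermis, with 2 WT mice and 2 mice heterozygous for a gene trap in *Kdm3b*, which encodes an H3K9 demethylase, and 1 library per mouse. The study's methods give adult male mice and WT littermates on a C57BL/6 background. The trap stems from 1 embryonic stem cell line and is carried by all cells of the mutant, blood and vessel cells included. Same-numbered mice of the groups are different animals.

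Hemoglobin carries oxygen in red cells and is built from alpha and beta chains, each holding a heme group. Alas2 is the erythroid form of the first enzyme of heme synthesis, and Alas1 is its counterpart in other cells. Mature red cells have no nucleus, and the youngest of them in the circulation, the reticulocytes, still hold globin mRNA. Globin mRNA has also been found in some neurons and glia of the rodent brain. In bulk tissue, fewer cells of a type and less RNA per cell cannot be told apart.

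The libraries held between 4.92 and 6.69 gigabases of aligned reads, as computed from coverage and FPKM. *Kdm3b* itself had a TPM (transcripts scaled to a fixed total of 1000000) of 9.10 and 10.996 in WT libraries and of 8.30 and 7.90 in heterozygous libraries. Both mutants were below both WT mice, but the log2 difference of −0.27 (standard error 0.17) did not pass the test (limma adjusted p = 0.424). By immunoblot, the study found significantly less KDM3B protein in the vermis and flocculus of the mutants. The trap lies within the gene, whereas this TPM is that of the gene as a whole. The tissue label was checked with 12 granule cell markers, all of which were above a mean TPM of 1. *Gabra6*, a GABA receptor subunit of granule cells, had a TPM between 984 and 1199.7 over the 4 libraries, and *Calb2*, the gene of calretinin, had between 1365 and 1891. *Cbln3*, a secreted synaptic protein gene of granule cells, had 971 and 1229 against 769 and 851. The summed TPM of the 12 markers was 5354 and 6315 in WT libraries and 5609.7 and 6133 in heterozygous libraries.

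The reference sequences of the genes decide how well their reads can be told apart, so they are shown first. *Hba-a1* and *Hba-a2* each have 3 exons on the forward strand of chromosome 11, and their GENCODE transcripts of GRCm38 run from 32283511 to 32284465 and from 32296489 to 32297298. The coding sequence of each has 429 bases, and they differ at 1 of them, C381T, counted from 1 at the A of the start codon with the base of *Hba-a1* first. The longest run without a difference holds 380 bases. The 41 bases around the difference, from position 361 to 401, are given with the differing base in capitals.
Hba-a1: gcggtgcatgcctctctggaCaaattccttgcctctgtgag
Hba-a2: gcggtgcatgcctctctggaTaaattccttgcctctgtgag

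*Hbb-bs* and *Hbb-bt* each have 3 exons on the reverse strand of chromosome 7, from 103826534 to 103827928 and from 103812524 to 103813996. These are the adult beta-globin genes of the C57BL/6 reference, while *Hbb-b1* and *Hbb-b2* are the names of the adult beta-globin genes of another haplotype of laboratory mice. The coding sequences of *Hbb-bs* and *Hbb-bt* have 444 bases and differ at 1 of them, C417T with the base of *Hbb-bs* first. Of all 50-base windows in the *Hbb-bs* coding sequence, 92.9% were found in that of *Hbb-bt*, against 65.8% over the whole transcript with its untranslated ends. For the alpha-globin pair, these shares were 87.1% in the coding sequence and 67.5% over the *Hba-a1* transcript. The 41 bases from position 397 to 437 are given in the same way.
Hbb-bs: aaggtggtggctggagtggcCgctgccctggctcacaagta
Hbb-bt: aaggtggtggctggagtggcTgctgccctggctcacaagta

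The authors' gene models overlap further than the genes themselves. Their *Hba-a1* entry runs from 32283672 to 32297303 on chromosome 11 and their *Hba-a2* entry from 32283675 to 32297310, so each spans both alpha-globin genes. In all 4 libraries the ratio of coverage to FPKM of both entries was 0.5 of the ratio found for most entries, whereas it was 1.0 for the beta-globin entries. The *Hbb-b1* entry, from 103826532 to 103827929 on chromosome 7, lies over *Hbb-bs* (103826523 to 103827928), and the entries of *Hbb-bt* and *Hbb-b2* share the same start and end, 103812524 and 103813923. Sums over these entries were therefore formed, and *Hbb-b2*, which is not among the 6 genes, was counted in the beta-globin sum.

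Among the alpha-globin entries, *Hba-a2* held most of the signal. Its TPM was 1057 and 909.5 in WT libraries and 1616 and 1079 in heterozygous libraries. *Hba-a1* had a TPM of 73.7 and 115 in WT libraries and of 143 and 134 in heterozygous libraries. The log2 difference was 0.43 (standard error 0.31) for *Hba-a2* and 0.58 (standard error 0.32) for *Hba-a1*. Both *Kdm3b*+/− mice were above both WT mice for each entry, but the second *Kdm3b*+/− mouse was above the first WT mouse in *Hba-a2* by a small margin. *Hba-a1* took between 6.52% and 11.3% of the alpha-globin signal, with WT mouse 1 lowest and WT mouse 2 highest, so the mice of a group differed more than the groups. Since the entries overlap, the split between *Hba-a1* and *Hba-a2* is uncertain. The summed alpha-globin TPM was 1130.3 and 1025 in WT libraries and 1759 and 1213 in heterozygous libraries. The groups did not overlap, with the first *Kdm3b*+/− mouse well above the other 3 mice. The means were 1078 ± 74.6 and 1486 ± 386 (SD, n = 2 each), a ratio of 1.38, and log2(TPM + 1) differed by 0.44 (standard error 0.28) between the groups. Without the first *Kdm3b*+/− mouse the difference was 0.17, and without the second it was 0.71.

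The entries at the *Hbb-bs* position split in a different way in the first WT mouse than in the other 3. The TPM of *Hbb-bs* was 506 in WT mouse 1 and 8.08 in WT mouse 2, and 0.00768 and 0.142 in heterozygous libraries. The TPM of *Hbb-b1* was 0.360 in WT mouse 1 and 401 in WT mouse 2, and 687 and 551 in heterozygous libraries. *Hbb-bs* thus held 99.9% of the signal at this position in WT mouse 1, 1.97% in WT mouse 2, and 0.00112% and 0.0257% in heterozygous libraries. Taken alone, *Hbb-bs* was lower and *Hbb-b1* higher in both *Kdm3b*+/− mice than in both WT mice, with log2 differences of −5.98 (standard error 2.90) and 4.72 (standard error 4.11). These values depend on which WT mouse is kept, since without WT mouse 1 they were −3.08 and 0.62, and without WT mouse 2 they were −8.88 and 8.82. The sum of both entries was 506 and 409 in WT libraries and 687 and 551 in heterozygous libraries, which varied 1.68-fold over the libraries, while *Hbb-b1* alone varied 1907-fold. The separate values of *Hbb-bs* and *Hbb-b1* are uncertain for this reason. The mice could differ in this split by how StringTie assigned reads to overlapping models or by their beta-globin haplotypes. The entry that held the signal in WT mouse 1, *Hbb-bs*, is the one of the C57BL/6 reference. Neither possibility was tested.

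**Figure D1:**
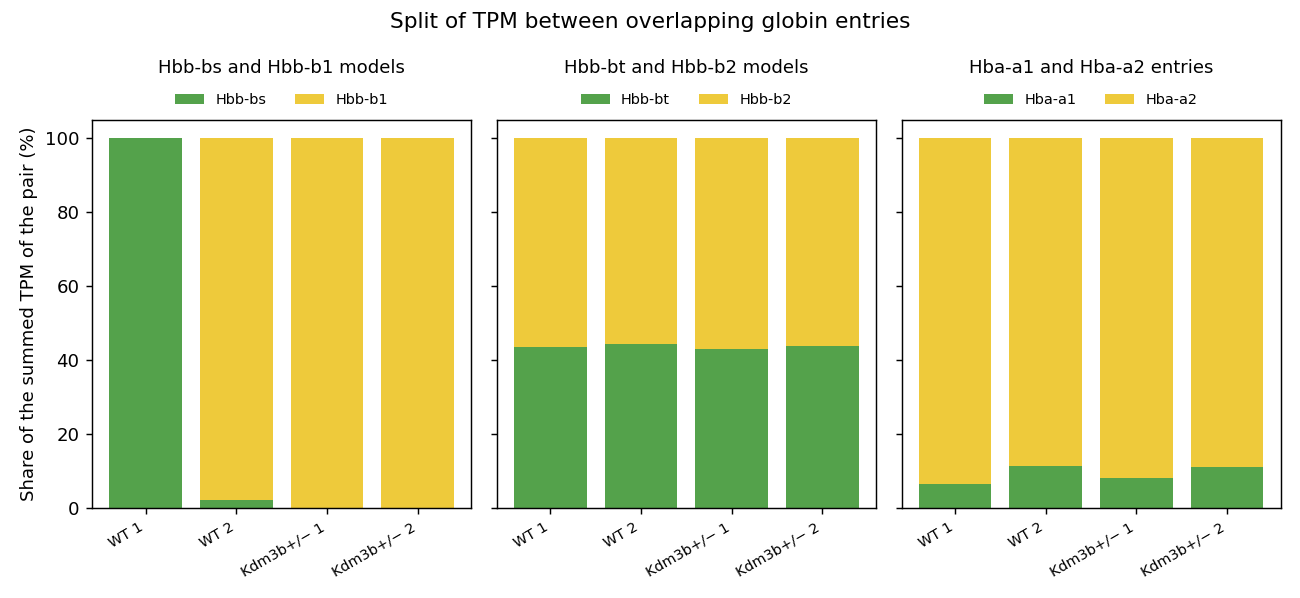
Stacked bars give, for each of the 4 libraries, the share in percent of the summed TPM of a pair of overlapping entries that was assigned to each entry. The *Hbb-bs* entry holds 99.9% of its pair in WT mouse 1 and at most 1.97% in the other 3 libraries, while the *Hbb-bt* and *Hba-a1* shares range from 43.0% to 44.4% and from 6.52% to 11.3%.

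The second beta-globin position was split in nearly the same proportion in every library. *Hbb-bt* had a TPM of 117 and 96.6 in WT libraries and of 156 and 129 in heterozygous libraries, and *Hbb-b2* of 153 and 120.9 against 207 and 165. *Hbb-bt* held between 43.0% and 44.4% of the sum of these entries. That sum was 270.1 and 217 in WT libraries and 363 and 294 in heterozygous libraries, and the groups did not overlap. The ratio of the *Hbb-bs* position to the *Hbb-bt* position was 1.87 and 1.88 in WT libraries and 1.89 and 1.88 in heterozygous libraries, so the beta-globin genes kept almost the same proportion in all 4 mice.

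Over all 4 beta-globin entries the TPM was 776 and 627 in WT libraries and 1049.8 and 845 in heterozygous libraries. Both *Kdm3b*+/− mice were above both WT mice, by the least between the second *Kdm3b*+/− mouse and WT mouse 1. The means were 701 ± 106 and 947 ± 145 (SD, n = 2 each), a ratio of 1.35 and a log2 difference of 0.43 (standard error 0.22). It was 0.28 without the first *Kdm3b*+/− mouse or without WT mouse 2, and 0.59 with either of the other mice left out. With the 3 listed beta-globin genes alone, the sum was 624 and 506 in WT libraries and 843 and 679.9 in heterozygous libraries, and the difference was again 0.43.

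Alpha-globin TPM exceeded beta-globin TPM in every library. The ratio of the TPM sums was 1.46 and 1.64 in WT libraries and 1.68 and 1.44 in heterozygous libraries, so the genotypes overlapped. By summed coverage the order was reversed, as the alpha-globin entries had the lower ratio of coverage to FPKM. Alpha-globin coverage was 1254 and 1267 in WT libraries and 2328 and 1855 in heterozygous libraries. Beta-globin coverage was 1722 and 1549 against 2779 and 2584. Which chain had more mRNA is therefore uncertain. Alpha and beta chains together had a TPM of 1907 and 1652 in WT libraries and of 2809 and 2058 in heterozygous libraries, which is 0.191%, 0.165%, 0.281% and 0.206% of each library's TPM. The order of the libraries was thus *Kdm3b*+/− mouse 1, *Kdm3b*+/− mouse 2, WT mouse 1 and WT mouse 2, and it was the same for the beta-globin and the alpha-globin sum. The mean was 1779 ± 180.3 in WT libraries and 2433 ± 531 in heterozygous libraries (SD, n = 2 each), a ratio of 1.37 and a log2 difference of 0.44 (standard error 0.25). It was 0.21 without *Kdm3b*+/− mouse 1 and 0.66 without *Kdm3b*+/− mouse 2. Counted as 1 gene, alpha-globin was at rank 94 and 98 by TPM in WT libraries and at rank 40 and 82 in heterozygous libraries. Of the tested genes, 3.71% had a log2 difference as high as the hemoglobin sum or higher. As the genes of the sum were chosen with these values known, this share is a description and not a test.

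*Alas2* did not follow the globin genes. Its TPM was 11.3 and 12.98 in WT libraries and 12.9 and 11.4 in heterozygous libraries, with a mean read coverage between 24.9 and 34.7 over its exons. The groups overlapped, and the highest library was 1.15-fold above the lowest. The means were 12.1 ± 1.21 and 12.1 ± 1.03 (SD, n = 2 each), and the log2 difference was 0.002 (standard error 0.12), between −0.09 and 0.10 with each mouse left out in turn. *Alas2* was lowest in WT mouse 1, which was the higher WT mouse in globin, and the hemoglobin TPM was 169 and 127 times that of *Alas2* in WT libraries and 219 and 180.5 times in heterozygous libraries.

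**Figure D2:**
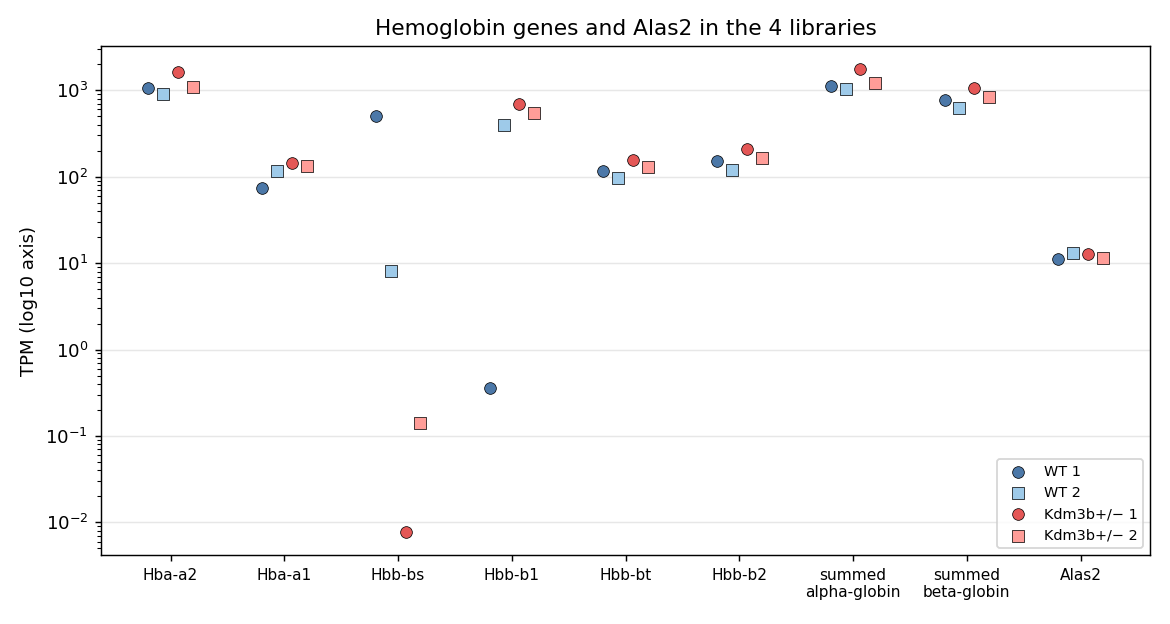
Points give the TPM (log10 axis) of each globin entry, of the alpha- and beta-globin sums and of *Alas2* in the 4 libraries, with circles for mice numbered 1 and squares for mice numbered 2. Both *Kdm3b*+/− mice lie above both WT mice in the sums, *Hbb-bs* and *Hbb-b1* change places in WT mouse 1, and *Alas2* lies between 11.3 and 12.98 throughout.

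Of the 6 genes, all had a mean TPM of at least 1. The groups did not overlap for 5 of them, 4 higher (*Hba-a1*, *Hba-a2*, *Hbb-bt*, *Hbb-b1*) and 1 lower (*Hbb-bs*) in *Kdm3b*+/− mice. Among all 13652 genes at this TPM, the groups did not overlap for 51.3%, with 19.2% higher and 32.0% lower, so such a pattern was frequent. A two-sided exact permutation test on 2 mice per group cannot go below a p of 0.333. The median log2 difference of all tested genes was −0.07.

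The reference sequence before the start sites of the globin genes and *Alas2* was also compared, as a description of the genes. Any relation of these sequences to the order of the libraries was not tested. The 250 bases upstream of each RefSeq start site (GRCm38.p6) were searched on both strands for 4 motifs. The letters AGATAA stand for a binding site of erythroid factors such as Gata1. The letters CCNCNCCC stand for a site of Klf1 and related factors. The other motifs were the CCAAT box and, written as ATATAA, the box that places the start of transcription. Of the 32851 promoters of this length, 9.99%, 45.9%, 33.8% and 9.10% held the respective motif. The globin promoters are shown with all matches in capitals, *Hba-a1* at chr11:32283422-32283671 (forward strand), *Hbb-bs* at chr7:103827929-103828178 and *Hbb-bt* at chr7:103813924-103814173 (reverse strand), together with *Alas2* at chrX:150547167-150547416 (forward strand).
Hba-a1: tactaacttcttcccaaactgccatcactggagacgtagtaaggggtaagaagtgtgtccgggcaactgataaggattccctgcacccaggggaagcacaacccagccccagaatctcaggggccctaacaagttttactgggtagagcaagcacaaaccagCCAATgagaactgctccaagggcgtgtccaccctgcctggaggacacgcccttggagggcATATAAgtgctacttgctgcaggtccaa
Hbb-bs: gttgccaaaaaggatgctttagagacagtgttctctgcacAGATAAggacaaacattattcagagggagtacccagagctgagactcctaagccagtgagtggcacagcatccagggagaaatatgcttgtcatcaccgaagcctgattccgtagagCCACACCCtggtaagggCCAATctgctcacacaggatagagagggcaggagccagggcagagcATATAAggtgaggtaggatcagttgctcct
Hbb-bt: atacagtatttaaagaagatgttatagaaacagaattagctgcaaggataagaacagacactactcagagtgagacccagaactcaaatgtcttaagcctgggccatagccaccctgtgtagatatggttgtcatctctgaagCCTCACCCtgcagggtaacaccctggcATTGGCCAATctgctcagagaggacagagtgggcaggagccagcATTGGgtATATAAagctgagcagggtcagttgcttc
Alas2: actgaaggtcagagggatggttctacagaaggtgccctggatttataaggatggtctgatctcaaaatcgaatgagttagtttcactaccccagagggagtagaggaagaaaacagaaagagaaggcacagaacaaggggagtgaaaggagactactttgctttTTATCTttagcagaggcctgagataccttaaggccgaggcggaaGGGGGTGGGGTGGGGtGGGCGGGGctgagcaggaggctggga

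The globin promoters shared a CCAAT and an ATATAA match at like distances. Counted back from the start site, ATATAA began at −28 in *Hba-a1*, at −30 in *Hbb-bs* and at −29 in *Hbb-bt*. CCAAT began at −88, −76 and −75, and *Hbb-bt* held 2 more matches on the other strand, at −80 and −36. CCNCNCCC was found in *Hbb-bs* and *Hbb-bt* but not in *Hba-a1*, and AGATAA in *Hbb-bs* alone of these 3. The *Alas2* promoter had neither CCAAT nor ATATAA and held AGATAA on the other strand, at −86, and 4 CCNCNCCC matches, 3 of them overlapping. The *Hba-a2* promoter held the same run of 247 bases as that of *Hba-a1*, whereas the longest run shared by *Hbb-bs* and *Hbb-bt* was 14 bases. A match is a description of the letters and not a sign of binding. Other spellings of each site were not searched, so the lack of a match does not show that a site is absent.

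Of the globin genes outside the hemoglobin sum, *Cygb* and *Ngb* were tested. The embryonic globin genes *Hba-x*, *Hbb-y*, *Hbb-bh1* and *Hbb-bh2* were listed at 0 in all libraries. *Cygb*, which encodes cytoglobin of fibroblast-like and other cells, had a TPM of 49.7 and 47.2 in WT libraries and of 32.4 and 42.1 in heterozygous libraries. *Ngb*, which encodes neuroglobin, had 0.782 and 0.712 against 1.18 and 1.99. The groups did not overlap for either gene, with *Cygb* lower and *Ngb* higher in *Kdm3b*+/− mice. Their adjusted p from limma was 0.279 and 0.261, so neither passed, although both had an unadjusted p under 0.05. To pass, a gene needed a fold change above 1.2 besides an adjusted p below 0.05, which 0.461% of all tested genes did, while 17.0% had an unadjusted p under 0.05.

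The 8 other genes of heme synthesis were all tested, and none of them passed. Their median log2 difference was −0.07, the same as that of all genes, and the lowest was −0.29 in *Fech*. An unadjusted p under 0.05 was found for 1 of them. *Urod*, the most abundant, had a TPM of 229.8 and 218 in WT libraries and of 222 and 208 in heterozygous libraries. *Alas1* had 98.5 and 105 against 93.2 and 94.1, and so exceeded *Alas2* in every library. *Fech*, which encodes the enzyme that inserts iron into heme, had 102 and 105 against 84.4 and 84.2 (log2 difference −0.29, standard error 0.13, limma adjusted p = 0.292). The summed TPM of the pathway was 718 and 733 in WT libraries and 685 and 683 in heterozygous libraries, thus slightly lower in both mutants. Of all tested genes, 32.0% were likewise lower in both mutants than in both WT mice.

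Of 19 genes of heme and iron handling, 18 were tested and none passed, with a median log2 difference of −0.02 and 1 unadjusted p under 0.05. *Fth1* and *Ftl1*, the ferritin chains that store iron, had a TPM of 13264 and 10673 and of 1409 and 1231 in WT libraries. In the *Kdm3b*+/− mice they had 10995 and 11772 and 1755 and 1428. *Ftl1* had no overlap between the groups (log2 difference 0.27, limma adjusted p = 0.348), and *Fth1* overlapped. *Trf*, the gene of transferrin, had 1372 and 1277 against 1328 and 1832. *Hmox1*, the heme oxygenase induced by heme, had 6.13 and 5.86 against 5.47 and 4.81 and did not pass.

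Genes of the red cell membrane and cytoplasm were 23 in the list, of which 21 were in the tables and 12 were tested. None passed, 2 had an unadjusted p under 0.05, and the median log2 difference was −0.07. Abundant genes of the list, such as *Mkrn1* and *Bnip3l*, are also expressed by neurons. *Mkrn1* had a TPM of 273 and 304 in WT libraries and of 233 and 227 in heterozygous libraries (log2 difference −0.33, limma adjusted p = 0.247), and *Bnip3l* had 188 and 179 against 198 and 189.5. Genes that mark red cells more closely were low. *Slc4a1*, the band 3 anion exchanger, had a TPM of 0.742 and 1.11 in WT libraries and of 0.950 and 0.901 in heterozygous libraries. *Rhag*, a gene of the Rh membrane complex, was at most 0.0706 in any library and was listed at 0 in WT mouse 1. The part of these genes in the hemoglobin difference was not tested.

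Of 10 erythroid transcription factors and receptors, 4 were tested and none passed, with 1 unadjusted p under 0.05. All 4 had a lower mean in *Kdm3b*+/− mice, with a median log2 difference of −0.21. That median lies within the interquartile range of all tested genes, −0.25 to 0.11. *Klf1*, an erythroid factor below the TPM minimum, overlapped between the groups, with 0.790 and 1.06 in WT libraries and 1.16 and 0.799 in heterozygous libraries. *Gata1*, the main transcription factor of red cell precursors, was at most 0.0851 TPM and was listed at 0 in both *Kdm3b*+/− mice, and *Gfi1b* was listed at 0 throughout. *Trim10*, also below the TPM minimum, went the other way, with 0.0323 and 0 in WT libraries and 0.251 and 0.221 in heterozygous libraries. *Epor*, the receptor of erythropoietin, which cells of the brain also express, had a TPM of 11.8 and 12.02 in WT libraries and of 5.28 and 7.39 in heterozygous libraries. Its groups did not overlap, with a log2 difference of −0.83 (standard error 0.19, limma adjusted p = 0.112). Without *Kdm3b*+/− mouse 2 it passed (log2 difference −1.04, limma adjusted p = 0.0331), and without *Kdm3b*+/− mouse 1 the adjusted p was 0.518. *Lmo2* and *Bcl11a* had overlapping groups, with a TPM between 10.1 and 16.8 and between 2.29 and 3.24.

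The markers of other blood cells differed in direction. *S100a8* and *S100a9*, which encode the calprotectin chains of neutrophils, were the genes of the blood and vessel lists that passed the test. *S100a8* had a TPM of 4.68 and 5.25 in WT libraries and of 0.973 and 0.757 in heterozygous libraries (log2 difference −1.68, standard error 0.19, limma adjusted p = 0.0116). *S100a9* had 7.82 and 6.64 against 1.82 and 0.945 (log2 difference −1.81, standard error 0.22, limma adjusted p = 0.0133). Both fell while the hemoglobin sum was higher in the same mice. The mean TPM of *S100a8* in heterozygous libraries was 0.865, so this gene reached the TPM minimum of 1 through the WT libraries. Without WT mouse 1 or WT mouse 2 the adjusted p of *S100a8* was 0.0694 and 0.0723 and that of *S100a9* was 0.0778 and 0.0795. Over 12 alternatives it ran from 0.000217 to 0.294 for *S100a8* and from 1.17e-05 to 0.447 for *S100a9*, with the highest values when no TPM minimum was set, and each gene passed in 9 of them. Of all tested genes, 0.344% passed with a lower value.

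Of the 14 neutrophil and monocyte genes, 5 were tested and 2 passed, with 3 unadjusted p under 0.05 and a median log2 difference of −1.11. The granule protein genes *Camp* and *Lcn2* had a TPM of 1.46 and 1.61 and of 1.87 and 1.61 in WT libraries, and of 0.190 and 0.287 and of 0.358 and 0.190 in heterozygous libraries. *Lcn2* had a mean TPM of 1.01 and so reached the TPM minimum only through the WT libraries. Its limma adjusted p was 0.0641. It was 0.107 with FPKM and 0.347 without the TPM filter, but 0.0443 with eBayes without trend and 0.0219 with the replicate block. *Camp* was below the TPM minimum. *Retnlg*, another neutrophil gene, had 0.771 and 0.806 in WT libraries and was listed at 0 in both *Kdm3b*+/− mice. *Cd14*, a monocyte and microglia gene, had 4.10 and 4.70 against 6.48 and 4.99. *Ly6c2* was listed at 0 in 3 libraries and had 10.6 in *Kdm3b*+/− mouse 1, and it is uncertain because of its near copy *Ly6c1*. The summed TPM of the list was 21.7 and 22.9 in WT libraries and 21.6 and 8.68 in heterozygous libraries, and 11.04 and 8.68 in the latter without *Ly6c2*.

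Platelet and lymphocyte markers were low, and their sums were higher in both *Kdm3b*+/− mice. Of 10 platelet genes, 3 were tested and none passed, with 1 unadjusted p under 0.05 and a median log2 difference of 0.53. *Pf4*, platelet factor 4, had a TPM of 2.09 and 1.04 in WT libraries and of 1.68 and 2.33 in heterozygous libraries, and *Gp1bb* had 1.81 and 0.360 against 2.85 and 1.87. *Ppbp* had 0.415 and 0.814 against 2.26 and 0.641, and *Gp6* was listed at 0. The summed platelet TPM was 7.13 and 4.27 in WT libraries and 10.05 and 8.13 in heterozygous libraries, which is the same order of the 4 libraries as that of hemoglobin. None of the 11 lymphocyte genes reached the TPM minimum, and their sum was 1.84 and 2.03 against 4.04 and 2.97. The lymphocyte sum did not share the order of hemoglobin, as it was lower in WT mouse 1 than in WT mouse 2. *Pf4* and *Ppbp* overlapped between the groups. The part of these blood cells in the hemoglobin sum was not tested.

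The summed vessel markers were also higher in both *Kdm3b*+/− mice than in both WT mice, although single genes differed in direction. For the endothelial list this rested on *Itm2a*. Without that gene, the endothelial sum was lower in both *Kdm3b*+/− mice than in both WT mice. Of 20 endothelial genes, 19 were tested, 9 with a higher and 10 with a lower mean in *Kdm3b*+/− mice, and none passed, with 3 unadjusted p under 0.05. Their median log2 difference was −0.06, and their summed TPM was 789 and 816 in WT libraries and 818 and 851 in heterozygous libraries, a narrow gap between the second WT and the first *Kdm3b*+/− mouse. *Ly6c1* overlapped between the groups, with a TPM between 144 and 197. *Slc2a1*, the glucose transporter of the blood-brain barrier, had 165 and 196 against 136 and 139, and *Itm2a* had 116 and 128 against 201 and 198. *Itm2a* had the smallest limma adjusted p of these genes, 0.0603, with a log2 difference of 0.71 (standard error 0.13). It passed with median-ratio scaling (limma adjusted p = 0.046) and with a TPM minimum of 5 (limma adjusted p = 0.0404). Of 11 genes of pericytes and smooth muscle, 8 were tested and none passed, with a median of 0.07 and 2 unadjusted p under 0.05. *Rgs5* had a TPM of 15.9 and 14.7 in WT libraries and of 21.5 and 19.96 in heterozygous libraries, while *Vtn* and *Kcnj8* had overlapping groups. The sum of this list was 173 and 183 against 189 and 220.4, again without overlap. The part of vessel content in the hemoglobin difference was not tested.

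*Ttr*, a main transcript of the choroid plexus, was at most 1.28 TPM and was listed at 0 in WT mouse 2. Of 8 choroid plexus markers, 2 were tested and none passed, with no unadjusted p under 0.05. *Otx2* had a TPM between 24.9 and 30.4, and *Clic6* between 0.353 and 2.84. Of the 12 granule cell markers, none passed, 3 had an unadjusted p under 0.05, and the median log2 difference was 0.06.

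**Figure D3:**
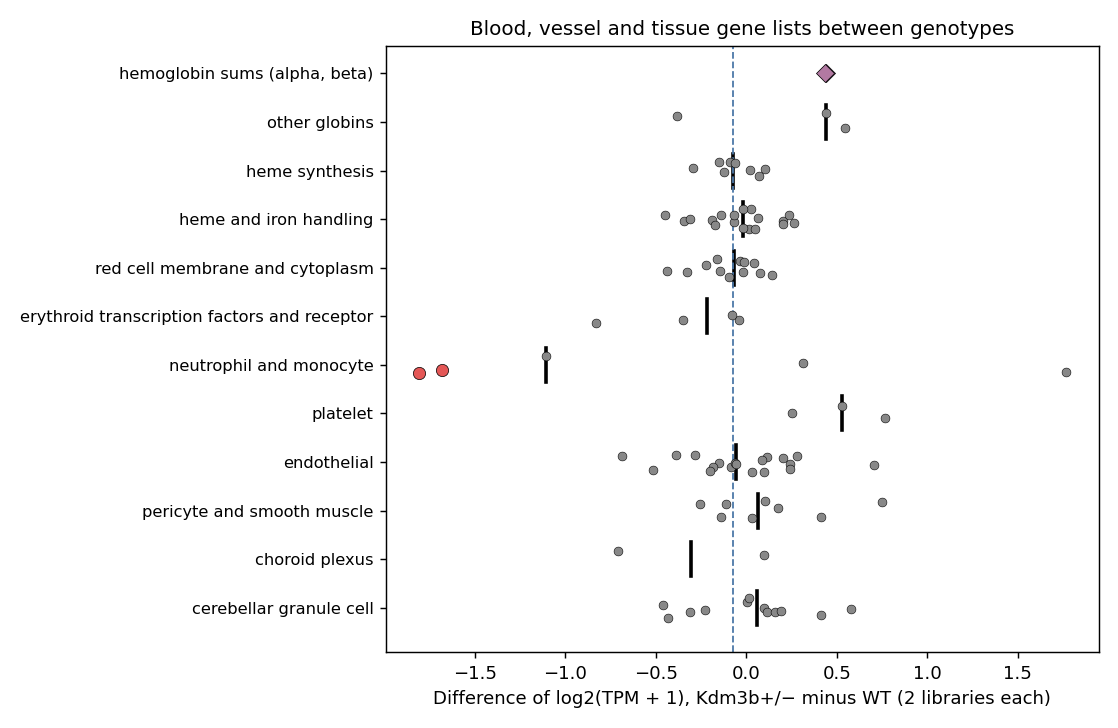
Each point is the difference of log2(TPM + 1) between *Kdm3b*+/− and WT mice (2 libraries each) of a tested gene, by list, with red for genes that passed the test, black bars for the median of a list, a dashed line for the median of all tested genes (−0.07) and diamonds for the alpha- and beta-globin sums (0.44 and 0.43). The row of other globins includes *Hbb-b2*, which is part of the beta-globin sum and sets that row's median of 0.44. The 2 red points are *S100a9* and *S100a8* at −1.81 and −1.68, and the heme synthesis, red cell and endothelial medians lie at −0.07, −0.07 and −0.06.

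**Figure D4:**
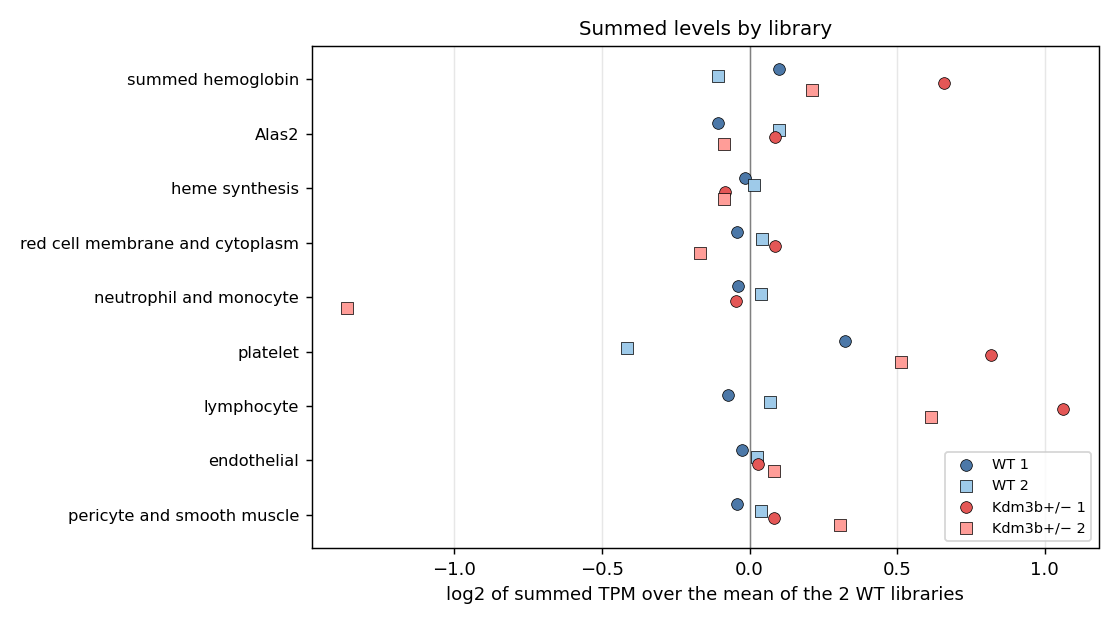
Points give log2 of the summed TPM of hemoglobin, *Alas2* and 7 gene lists in each library, relative to the mean of the 2 WT libraries. The sums of hemoglobin, platelet, lymphocyte, endothelial and pericyte genes are higher in both *Kdm3b*+/− mice than in both WT mice. The neutrophil and monocyte sum lies far to the left in *Kdm3b*+/− mouse 2 (8.68 TPM). In *Kdm3b*+/− mouse 1 that sum is 21.6 TPM with the uncertain *Ly6c2* counted and 11.04 TPM without it, against 21.7 and 22.9 TPM in WT libraries. The endothelial sums lie close together, at 789 and 816 TPM against 818 and 851 TPM, and are higher in *Kdm3b*+/− mice only with *Itm2a* counted.

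The genes whose values over the 4 libraries were most like those of the hemoglobin sum were named by the root mean square distance of log2(TPM + 1), centred on its mean, from that of the sum. This is a description over 4 libraries, with no test. The 5 nearest genes outside the globins were *Ccr10* (distance 0.0398), *4930526I15Rik* (0.0421), *Morn5* (0.0422), *Ak6* (0.0423) and *1700001G17Rik* (0.0437). None of them is a gene of the lists used here. *Ak6* had a TPM of 42.7 and 34.9 in WT libraries and of 62.0 and 47.5 in heterozygous libraries, and *Ccr10* had 1.45 and 1.15 against 2.53 and 1.79. For comparison, the distance was 0.0386 for the alpha-globin sum, 0.0599 for the beta-globin sum and 0.279 for *Alas2*, and the nearest genes lay between its own parts.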

How the data were processed

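Bulk RNA of 2 WT and 2 *Kdm3b*+/− mice was analysed, with groups and replicate numbers from the sample titles. The authors trimmed the reads, aligned them with STAR and ran StringTie, with versions and genome build not given in the sources used here. They deposited, per gene and library, coverage (mean read depth over exons, a signal that is not normalized), FPKM and TPM. Of the entries, 99.5% lay on the chromosome of a RefSeq table of GRCm38, which gave symbols for 24462 of 24532 identifiers. Of the starts, 89.9% lay within 1 kb of it, so coordinates are read as GRCm38. TPM of entries sharing an identifier was summed. TPM keeps no depth, so aligned bases were derived by dividing coverage by FPKM.

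The 13652 genes whose mean TPM reached 1 were tested as log2(TPM + 1) with limma version 3.58.1 (trend) in R version 4.3.3, with genotype as the only term and Benjamini-Hochberg adjustment over all of them. The log2(TPM + 1) scale understates changes of low genes. The methods of the study name DESeq2 on counts, which was not used here because TPM values are not counts. With 2 mice per group, limma shares the spread across genes. The scripts were tested on simulated data. Python version 3.11.15 made tables and figures.

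The members, the 12 gene lists and the tests were chosen with earlier results of these data known. *Hbb-b2* stands in the list of other globins but shares the position of *Hbb-bt*, so its test is not reported. Named genes were the 6 members and their sums, *Kdm3b*, the 3 tested genes of each list with the highest mean TPM, genes that passed, genes at 0 throughout and the 5 genes most like the hemoglobin sum. Other list genes were named after their values were seen. Alternatives were FPKM, a pseudocount of 0.1, no TPM filter, a higher TPM minimum of 5, median-ratio scaling, TPM rescaled without the members, the highest entry per identifier, a replicate block, eBayes without trend, the adjusted p alone and each library left out. Leaving out *Hbb-b2* was chosen after seeing the data. *Ahsp* and *Fam46c* were not analysed here, and the values of some list genes are not reported here.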

Additional observations from a re-analysis of the deposited data

How the results depend on the processing

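The log2 difference of the hemoglobin sum stayed above 0 under all 11 alternatives, between 0.21 and 0.66, that of the alpha-globin sum under 10 (0.17 to 0.71) and that of the beta-globin sum under 11 (0.28 to 0.59). The outer values came from leaving out a library, and median-ratio scaling gave 0.51, 0.51 and 0.50. *Hba-a1*, *Hba-a2* and *Hbb-bt* also stayed above 0, and *Alas2* lay between −0.09 and 0.10, on both sides of 0. Among these alternatives, the replicate block cannot change a difference in a balanced design and is no support. For the sums and for *Hba-a1*, *Hba-a2* and *Hbb-bt*, both *Kdm3b*+/− mice were above both WT mice. Leaving out a library or using a pseudocount of 0.1 therefore could not change the sign, and is no support for it. With the highest entry per identifier, or TPM rescaled without the members, the difference of the hemoglobin sum stayed at 0.44. With FPKM it was 0.5.

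Over all genes, 63 passed the test, 16 higher and 47 lower. The count was 38 with FPKM, 2 without the TPM filter, 37 with eBayes without trend, 600 with the replicate block, and between 21 and 188 with a library left out. Median-ratio scaling gave 69, with 29 higher and 40 lower. In the gene lists 2 genes passed. There were 0 without the TPM filter, 1 with a mean TPM of at least 5 (*Itm2a*, as *S100a8* and *S100a9* are below that minimum), 8 with the replicate block and between 0 and 5 with a library left out (0 without either WT library, 5 without *Kdm3b*+/− mouse 2, with *Epor*, *Ly6c2* and *Slc17a7* added). *Lcn2* also passed with eBayes without trend. The cause of these changes in the count was not tested. The filters also change how many genes are tested. A group with 1 library left is assumed to vary like the other.

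The replicate numbers are from the labels, mice of the same number are different animals, and their deviations correlated at 0.121 across genes. With the block, *Epor*, *Itm2a*, *Lcn2*, *Slco1a4*, *Cbln3* and *Higd1b* passed besides *S100a8* and *S100a9*. The 2 mice per group, and the shared positions of the globin entries, limit what these tables can show.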
